A study of Homo sapiens with 12 samples.

Results

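Expression of 10 genes of arginine and polyamine metabolism was compared between senescent and non-senescent cells of the line EndoC-βH3. The genes were ASS1, ASL, ARG2, ODC1, SAT1, SMS, SRM, AMD1, GATM and OAT, taken by symbol from the 35337 rows of the deposited expression table, and each symbol had its own row. They were selected with the senescence contrast of these same libraries already known, in particular the rise of ASS1, so the values of that contrast are given as a description, without a test.

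EndoC-βH3 is a single human line resembling pancreatic beta cells, derived from fetal pancreas. All libraries came from this line, labelled as wild type, which carries hTERT and SV40 large T antigen together with a tamoxifen-activated CreER recombinase that can remove both. Senescent cells had been treated for 3 weeks with 4-hydroxytamoxifen, whose concentration is given in different units in the labels (millimolar) and in the methods of the study (micromolar). Non-senescent cells are labelled as control and no vehicle is named. Each group held 6 libraries of the CEL-seq2 type, which reads the 3′ end of poly(A) RNA, with 2 in batch A versus 4 in batch B. The methods describe the batches as independent, but nothing says that the libraries of 1 batch came from separate cultures, so that the errors and p-values may measure technical spread. In such bulk libraries, fewer expressing cells and less RNA per cell cannot be told apart.

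Arginine is made from citrulline and aspartate by argininosuccinate synthase (ASS1) and argininosuccinate lyase (ASL), and is broken down by arginase to ornithine and urea. Ornithine is turned into the polyamine putrescine by ornithine decarboxylase (ODC1), or into glutamate semialdehyde, a precursor of glutamate and proline, by ornithine aminotransferase (OAT). Spermidine synthase (SRM) and spermine synthase (SMS) extend putrescine with aminopropyl groups supplied by AMD1, while SAT1 acetylates spermidine and spermine and so starts their breakdown or export.

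The genes of the group that the results turn on, ASS1, SAT1 and ARG2, lie on chromosome 9 (130444961 to 130501274, plus strand), chromosome X (23783173 to 23786210, plus strand) and chromosome 14 (67619920 to 67651708, plus strand) of GRCh38, and are protein-coding in GENCODE. The 250 bases before their start sites are shown because these 3 of the 10 genes had the highest log2 fold changes. The windows are RefSeq sequence on the plus strand of GRCh38.p14, at chr9:130444711-130444960, chrX:23782923-23783172 and chr14:67619670-67619919. Capitals mark matches, on either strand, to any of 4 motifs: the E-box CACGTG, the GC box GGGCGG, the TATA box TATAAA and the cAMP response element TGACGTCA.
ASS1: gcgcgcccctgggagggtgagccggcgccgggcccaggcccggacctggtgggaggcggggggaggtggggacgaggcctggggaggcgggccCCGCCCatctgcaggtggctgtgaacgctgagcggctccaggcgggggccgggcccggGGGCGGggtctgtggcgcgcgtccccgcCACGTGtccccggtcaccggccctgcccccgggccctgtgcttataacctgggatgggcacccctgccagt
SAT1: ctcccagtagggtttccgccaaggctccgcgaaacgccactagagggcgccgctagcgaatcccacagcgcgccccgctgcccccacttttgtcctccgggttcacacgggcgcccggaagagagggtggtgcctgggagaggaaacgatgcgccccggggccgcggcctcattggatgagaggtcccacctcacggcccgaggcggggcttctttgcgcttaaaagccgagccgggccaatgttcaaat
ARG2: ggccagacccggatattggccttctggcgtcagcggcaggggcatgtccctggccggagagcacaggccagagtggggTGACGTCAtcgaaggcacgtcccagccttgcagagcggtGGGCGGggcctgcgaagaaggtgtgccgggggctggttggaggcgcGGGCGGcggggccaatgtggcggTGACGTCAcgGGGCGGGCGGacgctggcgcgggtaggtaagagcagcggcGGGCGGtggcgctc

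The ASS1 window held 1 E-box and 2 GC boxes, the ARG2 window 5 GC boxes and 2 cAMP response elements, and the SAT1 window none of these letters. Adjoining GC boxes of ARG2 overlap in the capitals. Of the 10 genes, all matched in RefSeq, 9 had a GC box, against 42.6% of 35116 promoter windows of the same length. An E-box was present for 2 of the 10 genes, ASS1 and SRM, against 6.34% of windows, and a cAMP response element for 1, ARG2, against 1.65%. No gene of the 10 had a TATA box in this form, which 10.7% of windows had. GC content was 78.8% for ASS1, 72.4% for ARG2 and 66.4% for SAT1, against a median of 58% over all windows. It was 66.4% to 82% over the 10 genes, where the quartiles of all windows were 46.4% and 68%. The motif shares were not matched for GC content. These matches describe the letters of the windows only.

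Libraries held 4672924 to 17106776 reads, with 8873569 to 17106776 in batch A and 4672924 to 7063264 in batch B. Values are normalised read counts, meaning reads divided by a size factor of the library. Genes with a mean of at least 5 over the 12 libraries were tested (13847 genes), with limma on log2(normalised read count + 1) and with batch and group in the model, and a gene was called where its adjusted p was under 0.1 and its fold change over 1.5. Log2 fold changes below are senescent minus non-senescent on that scale, with their standard errors, and understate the change of low genes. The proliferation marker MKI67 went from 537 ± 138 to 73.6 ± 10.99 normalised read counts (SD, n = 6), and the cell cycle inhibitor CDKN1A from 45.1 ± 20.2 to 981 ± 661. INS, the insulin gene, went from 19853 ± 8849 to 99547 ± 60362. TERT was at 97.3 ± 36.0 and 113 ± 23.6, and the files do not say whether its reads come from the introduced copy. Of 15 beta-cell markers, 14 passed the filter, all but the glucose transporter SLC2A2, and their summed level was 39030 to 58258 in non-senescent and 82258 to 216418 in senescent libraries. INS, which is in this sum, was alone at 11021 to 34331 and then 49685 to 185508. The sum therefore does not show how the other beta-cell markers changed. The 3 alpha-cell markers summed to 3869 to 9761 and then 2273 to 5515, the 2 delta-cell markers to 159942 to 287891 and then 115182 to 142729. The 4 acinar markers, of which 1 passed the filter, summed to 33.9 to 58.4 and then 144 to 251, and the 3 ductal markers to 240.0 to 379 and then 79.9 to 159.5. Fibroblast markers (at most 27.8), endothelial markers (at most 16.2, with VWF at 0 reads) and immune markers (at most 51.1) were low in both groups. The part of these other markers in the results below was not tested.

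Of the 10 genes, 9 passed the filter, and GATM did not. ASS1 and SAT1 were higher in senescent cells, by more than the limits used for calls (11.6% of all tested genes were called higher), and 0 of the 9 genes were lower by as much (11.8% of all tested genes). With every library scaled to the same total, 1225 genes in place of 1605 were called higher and 2092 in place of 1632 lower, with 2 and 0 of the 9 genes. The groups of ASS1 and SAT1 did not overlap in batch A nor in batch B, higher in both (11.9% of all tested genes), while no gene was lower without overlap in both (11.9%). The median log2 fold change of the 9 genes was 0.08, against 0.01 for all tested genes, and the median size of the change was 0.34, against 0.33. In batch A alone 4 of the 9 were beyond the limits as higher, with ARG2 and ASL in addition, and 1667 of the 13847 tested genes were called higher. Since the genes were chosen with this contrast known, nothing is read from these counts and shares.

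**Figure D1:**
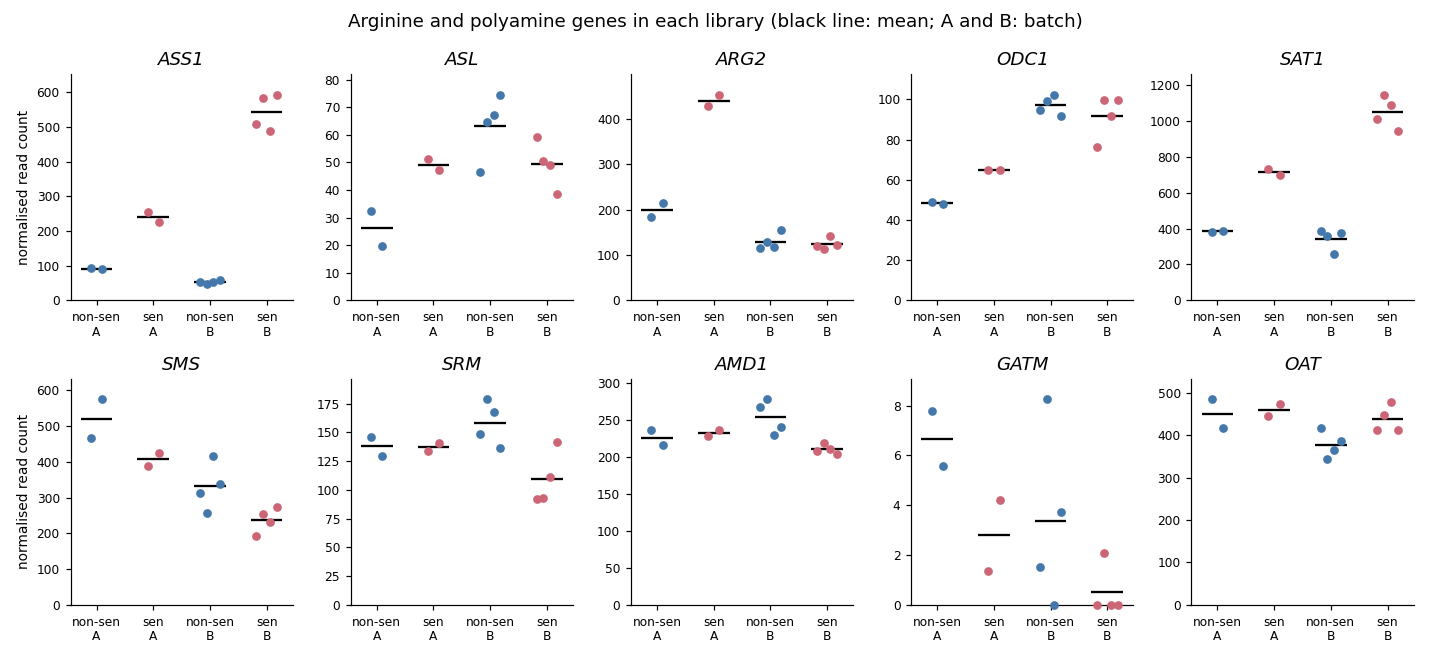
Normalised read count of each of the 10 genes in each library, by group and batch, with 1 point per library, a black line at the mean of the group in that batch, and axes that start at 0. ASS1 and SAT1 are higher in every senescent than in every non-senescent library, ARG2 is high only in the 2 senescent libraries of batch A, and GATM is low throughout.

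Synthesis of arginine was represented by ASS1 and ASL. In non-senescent cells, ASS1 was at 93.9 and 89.0 normalised read counts in the libraries of batch A, and at 54.2, 46.8, 52.6 and 58.4 in batch B. In senescent cells it was at 254 and 226 in batch A, and at 509, 584, 489 and 593 in batch B. Every senescent library was above every non-senescent one, and batch B held both the lowest and the highest values. Mean levels were ordered non-senescent B (53.0), non-senescent A (91.5), senescent A (240.3) and senescent B (544), and no neighbours in that order overlapped. Means were 65.8 ± 20.3 and 442 ± 162 (SD, n = 6), a log2 fold change of 2.68 ± 0.24 or 6.42-fold. This was the 50th largest rise among tested genes, and 0.794% of tested genes had a larger change in either direction. Within batch B the libraries of a group were close together, with a coefficient of variation of 9.05% in non-senescent and 9.64% in senescent cells.

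ASL, which releases arginine from argininosuccinate, was at 32.2 and 19.9 in non-senescent batch A and at 46.7, 64.7, 67.2 and 74.5 in non-senescent batch B. Senescent values were 51.2 and 47.1 in batch A and 59.4, 50.4, 49.2 and 38.6 in batch B. Senescent libraries were thus the higher ones in batch A, while the groups overlapped in batch B. Over both batches the log2 fold change was 0.08 ± 0.23. A second annotated protein-coding gene on the same strand covers the 3′ end of ASL, so reads may be shared between them.

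Among the genes that use arginine, ARG2, the mitochondrial arginase, was at 185 and 214 in non-senescent and at 427 and 453 in senescent libraries of batch A. In batch B it was at 116, 128, 118 and 155 in non-senescent and at 119, 113, 141 and 122 in senescent libraries. The groups were apart in batch A and overlapped in batch B. Levels were ordered senescent B (124) and non-senescent B (129), which overlapped, then non-senescent A (199) and senescent A (440.2). The log2 fold change was 1.14 ± 0.18 in batch A versus -0.06 ± 0.13 in batch B. The gene VTI1B lies on the opposite strand over the 3′ end of ARG2, and was at a mean of 130.3 and 226 in batch A, and 155 and 226 in batch B, non-senescent before senescent. Whether counting used the strand is not stated, and the part of VTI1B in the ARG2 values was not tested.

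GATM, which transfers the amidino group of arginine to glycine in the first step of creatine synthesis, was near the limit of detection. It had 14, 7, 1, 6, 0 and 3 reads in the non-senescent and 3, 7, 0, 2, 0 and 0 reads in the senescent libraries, in the order A1, A2 and B1 to B4. At a count of 0, up to 3 reads remain possible, which is 0.642 ppm of the smallest library. Values were at or under 3 reads in 3 of the 6 non-senescent and 5 of the 6 senescent libraries, and no fold change is given for this gene below the filter.

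At the branch point of ornithine, ODC1, the first enzyme of polyamine synthesis, was at 48.9 and 47.7 in non-senescent and at 64.6 and 64.6 in senescent libraries of batch A. In batch B it was at 94.9, 99.1, 102 and 91.9 in non-senescent and at 76.3, 99.7, 91.6 and 99.6 in senescent libraries. All libraries of batch B were above all of batch A, and the groups overlapped in batch B. The log2 fold change between groups was 0.08 ± 0.13. OAT, which passes ornithine towards proline and glutamate, ranged from 343 to 485 in non-senescent libraries (median 401) and from 412 to 477 in senescent ones (median 446). The ranges overlapped, with a log2 fold change of 0.15 ± 0.08.

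The 3 genes of polyamine elongation had log2 fold changes of -0.43 to -0.16, each under the fold limit. SMS was at 467 and 575 in non-senescent and 389 and 425 in senescent libraries of batch A, and at 312, 257, 416 and 339 against 193, 253, 231 and 273 in batch B. The groups were apart in batch A and overlapped in batch B, and the log2 fold change was -0.43 ± 0.12. SRM ranged from 129.5 to 179 in non-senescent (median 148) and from 92.1 to 142 in senescent libraries (median 122), with a log2 fold change of -0.36 ± 0.14. That of AMD1, which decarboxylates S-adenosylmethionine for both synthases, was -0.16 ± 0.09, with ranges of 216 to 278 (median 239) and 204 to 237 (median 214). The groups of SRM overlapped in both batches, while those of AMD1 overlapped in batch A and were apart in batch B, at 229 to 278 in non-senescent and 204 to 218 in senescent libraries. Their log2 fold changes were near 0 in batch A (0.00 ± 0.22 and 0.04 ± 0.14) and lower in batch B (-0.54 ± 0.15 and -0.27 ± 0.10).

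In polyamine catabolism, SAT1 was at 383 and 385 in non-senescent and at 731 and 701 in senescent libraries of batch A. In batch B it was at 385, 359, 256 and 375 in non-senescent and at 1009, 1146, 1091 and 943 in senescent libraries. As for ASS1, every senescent library was above every non-senescent one. The non-senescent batches overlapped, and senescent A and senescent B followed without overlap. Means were 357 ± 50.7 and 937 ± 185 (SD, n = 6), a log2 fold change of 1.38 ± 0.13 or 2.60-fold, and 6.29% of tested genes changed more.

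The size of the response was then compared between batches, as the interaction of batch and group. The genes were chosen with the contrast within each batch known, the larger response of ASS1 in batch B included, so these differences are also given as a description, without a test. ASS1 had a log2 fold change of 1.38 ± 0.17 in batch A versus 3.33 ± 0.12 in batch B, a difference of 1.95 ± 0.21. For ARG2 the response was smaller in batch B by -1.20 ± 0.22. For SAT1, with 0.90 ± 0.16 in batch A versus 1.62 ± 0.12 in batch B, the difference was 0.72 ± 0.20, and for ASL it was -1.27 ± 0.38. With 1 library left out, the difference was 0.59 to 0.78 for SAT1 and -1.61 to -0.94 for ASL. Over the other alternatives it was 0.65 to 0.77 and -1.31 to -1.08. No call is made for these genes. For other genes below, a difference between batches passed where the adjusted p of the interaction was under 0.1 (4.21% of all tested genes). The batches also differed in depth, as given above, and in the response of CDKN1A, whose log2 fold change was 2.18 ± 0.32 in batch A versus 4.78 ± 0.23 in batch B. The part of either was not tested.

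**Figure D2:**
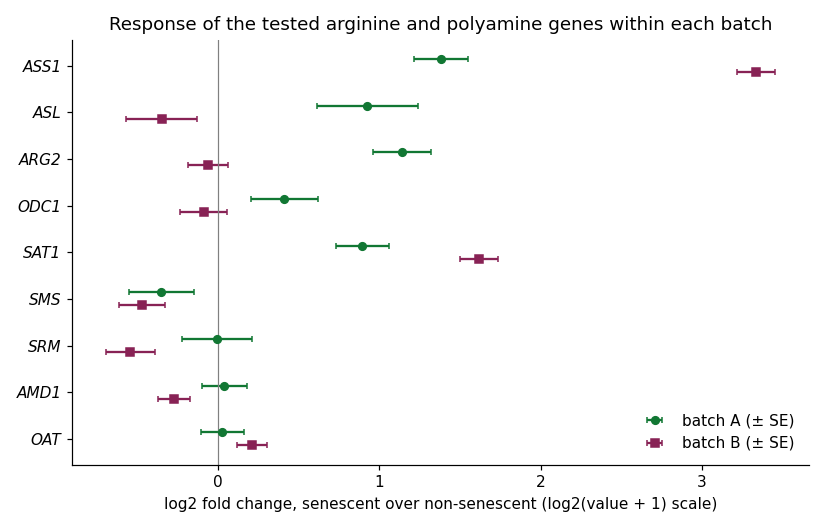
Log2 fold change (senescent minus non-senescent) of the 9 tested genes in batch A and in batch B, with the standard error. ASS1 and SAT1 are above 0 in both batches and larger in B, ARG2 and ASL are above 0 in A only, and the other 5 genes have batch values between -0.54 and 0.41.

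Levels themselves differed between batches for 4 of the 9 genes, at the same limits. ODC1 and ASL were higher in batch B (26.3% of all tested genes), by 0.74 ± 0.14 (limma adjusted p = 2.07e-04) and 0.63 ± 0.24 (limma adjusted p = 0.0313) on the log2 scale. In senescent cells, however, ASL was at a mean of 49.1 in batch A versus 49.4 in batch B and overlapped, so that its batches were apart in non-senescent cells only. Its call was lost with TMM scaling, a pseudocount of 8, edgeR or DESeq2, and without non-senescent A2, B3 or B4. ARG2 and SMS were lower in batch B (26.8% of all tested genes), with differences of -1.23 ± 0.18 (limma adjusted p = 1.50e-05) and -0.73 ± 0.12 (limma adjusted p = 6.30e-05). The share of the 9 genes that differed between batches was near that of all genes. For ASS1 and SAT1 the batch difference was 0.20 ± 0.26 and 0.18 ± 0.13, which did not pass.

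Pseudogenes could take reads from some of these genes. The table listed 11 pseudogenes of ASS1, of which 1 had reads, 3 in all against 3254 for ASS1. Those of AMD1 had 17 reads against 3057, that of ASL 25 against 630, and those of SRM 0 against 1787. Over the 12 libraries, the genes with values most like ASS1 were CALY, PROC, C2orf54, LHX4 and FAM84B, with Pearson's r of log2(normalised read count + 1) from 0.983 to 0.995 among 11681 genes with a mean of at least 20, and SAT1 was 12th (0.971). These values share the group and batch differences. After these were removed, GMPSP1, THSD8, GCG, SST and VTN were most like ASS1, with r from 0.966 to 0.978, and SAT1 was 438th (0.737). The remaining values still hold the difference in response between the batches. Over both batches the log2 fold changes of GMPSP1, THSD8, GCG, SST and VTN were -1.30 to -0.11, against 2.68 for ASS1. In batch B the change of GMPSP1 and of THSD8 was exactly 0, as values of 0 in all of its libraries would give. It is then no measure of unchanged expression, and the likeness of these genes to ASS1 rests on their batch A values.

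Another 53 genes around the pathway were grouped by role, in a list made with earlier results of these data known. Their adjusted p-values are therefore not independent of those results. The filter was passed by 43 of the 53 genes. In senescent cells 6 were higher and 4 lower, and 33 did not pass (limma, same limits; 11.6% and 11.8% of all tested genes). These counts were near the shares of all tested genes, and nothing is read from the counts by role below. Without overlap in both batches, 5 were higher and 5 lower (11.9% each of all tested genes). The median log2 fold change of the 43 genes was -0.09, against 0.01 for all tested genes. The 10 below the filter were NAGS, OTC, ARG1, SLC25A15 and SLC25A2 of the urea cycle, the inducible and endothelial nitric oxide synthases NOS2 and NOS3, the arginine transporter SLC7A3, the muscle creatine kinase CKM and the liver enzyme MAT1A.

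**Figure D3:**
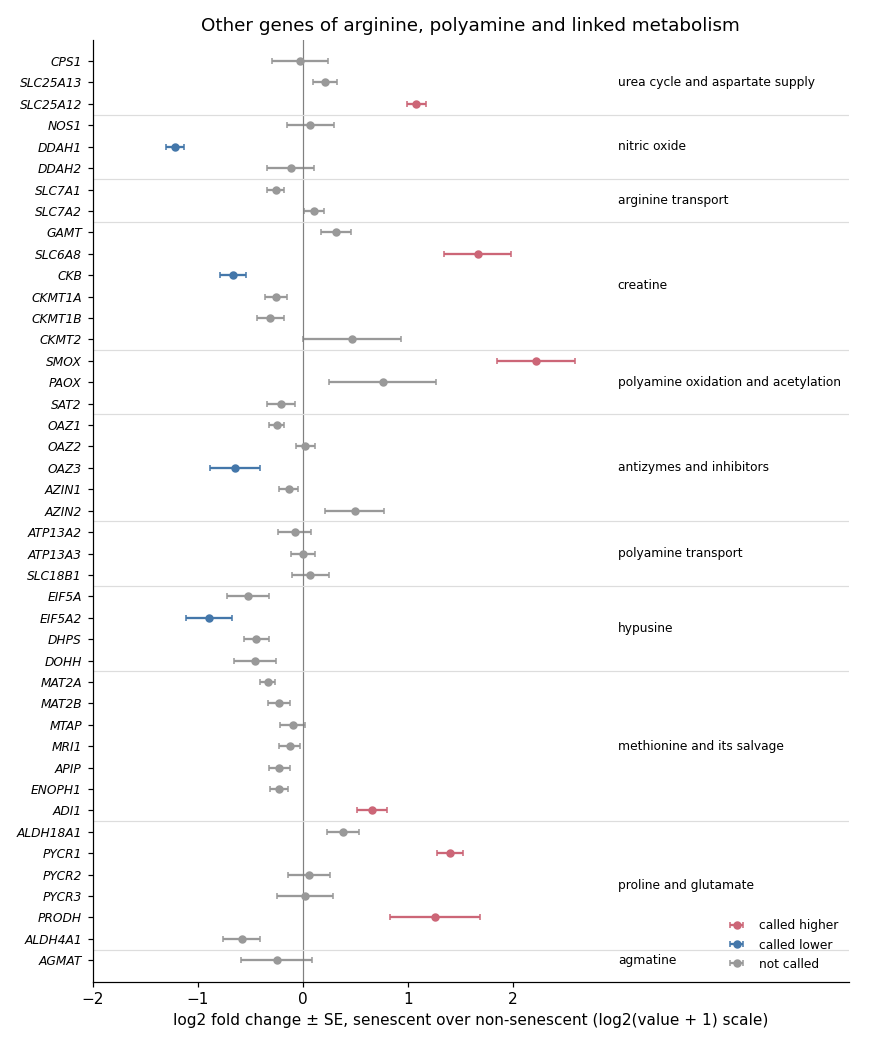
Log2 fold change (senescent minus non-senescent, with standard error) of the 43 tested genes around the pathway, grouped by role, with called genes in colour. SMOX is the highest at 2.22, from only 22 reads over all non-senescent libraries. SLC6A8 follows at 1.66, and DDAH1 is the lowest at -1.22.

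Among polyamine oxidases and acetylases, 1 of 3 tested genes was higher (11.6% of all tested genes). SMOX, which oxidises spermine back to spermidine, was at 3.89 and 2.38 in non-senescent and 16.2 and 24.2 in senescent libraries of batch A, and at 10.5, 1.38, 2.92 and 2.48 against 20.6, 23.1, 12.6 and 19.9 in batch B. The groups did not overlap, and the log2 fold change of SMOX was 2.22 ± 0.38. SMOX passed the filter of 5 only through its senescent libraries (mean 19.4), as its non-senescent mean was 3.93. The non-senescent libraries held 1 to 7 reads each, 22 in all, so that some were under the floor of 3 reads. This rise is therefore given as a description, without a test. Its size depended on the pseudocount at these low levels, from 1.22 to 2.55 over the alternatives. PAOX, the oxidase of acetylated polyamines, did not pass (0.76 ± 0.51, limma adjusted p = 0.257), nor did SAT2 (-0.20 ± 0.13, limma adjusted p = 0.253). Of the 5 antizymes and antizyme inhibitors, which control ODC1 protein, OAZ3 fell by 0.65 on the log2 scale (SE 0.24, limma adjusted p = 0.0397), from 50.9 ± 12.7 to 36.0 ± 21.2 (SD, n = 6). Its groups overlapped in batch B, and the call was lost with a pseudocount of 8, with no batch term, in batch B alone, and without non-senescent A2, senescent A1 or senescent B1. TDRKH lies on the opposite strand over its 3′ end, with a log2 fold change of -0.41. All 3 polyamine transporters tested were not called, with log2 fold changes from -0.08 to 0.07. Their changes had opposite signs in the batches. Batch A and then batch B gave 0.42 and -0.33 for ATP13A2, -0.36 and 0.18 for ATP13A3, and -0.51 and 0.36 for SLC18B1. None of these differences between batches passed.

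Of the 4 genes of hypusine, the spermidine-derived modification of the translation factor EIF5A, 1 was lower (11.8% of all tested genes). EIF5A2 was at 102 and 86.6 against 46.2 and 51.3 in batch A, and at 52.7, 117, 68.7 and 55.9 against 41.2, 43.0, 51.5 and 22.4 in batch B, non-senescent before senescent. Every senescent library was below every non-senescent one, and EIF5A2 fell by 0.89 on the log2 scale (SE 0.22, limma adjusted p = 0.00386). The enzymes that add hypusine, DHPS and DOHH, had log2 fold changes of -0.44 ± 0.12 and -0.45 ± 0.20, under the fold limit.

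In proline metabolism 2 of 6 tested genes were higher (11.6% of all tested genes). PYCR1, the last enzyme of proline synthesis, was at 56.7 and 51.7 against 171 and 146 in batch A, and at 64.7, 66.1, 61.4 and 53.4 against 167, 150.1, 130.5 and 183 in batch B. It rose by 1.40 ± 0.13 on the log2 scale (limma adjusted p = 1.20e-07), and the groups did not overlap. The enzyme before it, ALDH18A1, had a log2 fold change of 0.38 ± 0.15 and was not called. PRODH, which starts proline breakdown, was at 107 and 70.7 in non-senescent and 414 and 341 in senescent libraries of batch A, but at 0.00 to 7.53 in all libraries of batch B. Its call (1.26 ± 0.43, limma adjusted p = 0.0282) rested on batch A and was lost in batch B alone and with no batch term. DGCR6 covers its 3′ end on the opposite strand, with means of 36.9 and 77.1 in batch A, and 119 and 171 in batch B.

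In the supply of aspartate, the other nitrogen donor of ASS1, the mitochondrial aspartate-glutamate carrier SLC25A12 was at 178 and 153 against 391 and 349 in batch A, and at 202, 190.0, 251 and 214 against 446, 439, 452 and 421 in batch B. It rose by 1.08 ± 0.09 on the log2 scale (limma adjusted p = 5.22e-08) and the groups did not overlap. Its paralog SLC25A13 was not called (0.22 ± 0.11, limma adjusted p = 0.145), nor was CPS1, the entry enzyme of the urea cycle (-0.03 ± 0.27). In nitric oxide metabolism, DDAH1, which degrades the synthase inhibitor dimethylarginine, was at 335 and 356 against 159.8 and 158 in batch A, and at 1068, 975, 922 and 947 against 341, 390.4, 482 and 419 in batch B. Each senescent library was below the non-senescent libraries of its batch, and DDAH1 fell by 1.22 on the log2 scale (SE 0.09, limma adjusted p = 8.29e-09). BCL10-AS1 lies on the opposite strand over its 3′ end. NOS1 (0.07 ± 0.23) and DDAH2 (-0.11 ± 0.23) did not pass. The 2 arginine transporters tested, SLC7A1 and SLC7A2, were not called, with log2 fold changes of -0.26 ± 0.08 and 0.11 ± 0.10.

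Of the 6 tested creatine genes, 1 was higher and 1 lower (11.6% and 11.8% of all tested genes). SLC6A8, the creatine transporter, was at 30.0 and 15.1 against 73.2 and 74.9 in batch A, and at 12.05, 5.51, 2.92 and 14.9 against 31.5, 25.2, 21.7 and 23.7 in batch B. It rose by 1.66 ± 0.32 on the log2 scale (limma adjusted p = 4.57e-04), without overlap within either batch, and has near-identical copies in the genome. CKB, the cytosolic creatine kinase, was at 2404 and 2329 against 2247 and 2390.4 in batch A, and at 2336, 2558, 2135 and 2251 against 1208, 1148, 1180.0 and 1172 in batch B. The groups overlapped in batch A and were apart in batch B. CKB fell by 0.66 on the log2 scale over both batches (SE 0.12, limma adjusted p = 3.96e-04), and its response differed between batches by -0.95 ± 0.12 (limma adjusted p = 2.84e-04). The call was lost in batch A alone, where the log2 fold change was -0.03 ± 0.09. In methionine metabolism and its salvage, which recovers the by-product of SRM and SMS, 1 of 7 tested genes was called, as higher (11.6% of all tested genes). ADI1 rose by 0.66 ± 0.14 (limma adjusted p = 0.00148), from 113 ± 36.5 to 184 ± 71.0 (SD, n = 6). It was no longer called without non-senescent B2, without senescent B2, with no batch term or in batch A alone. AGMAT, which turns agmatine into putrescine, was not called (-0.25 ± 0.33, limma adjusted p = 0.598).

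**Figure D4:**
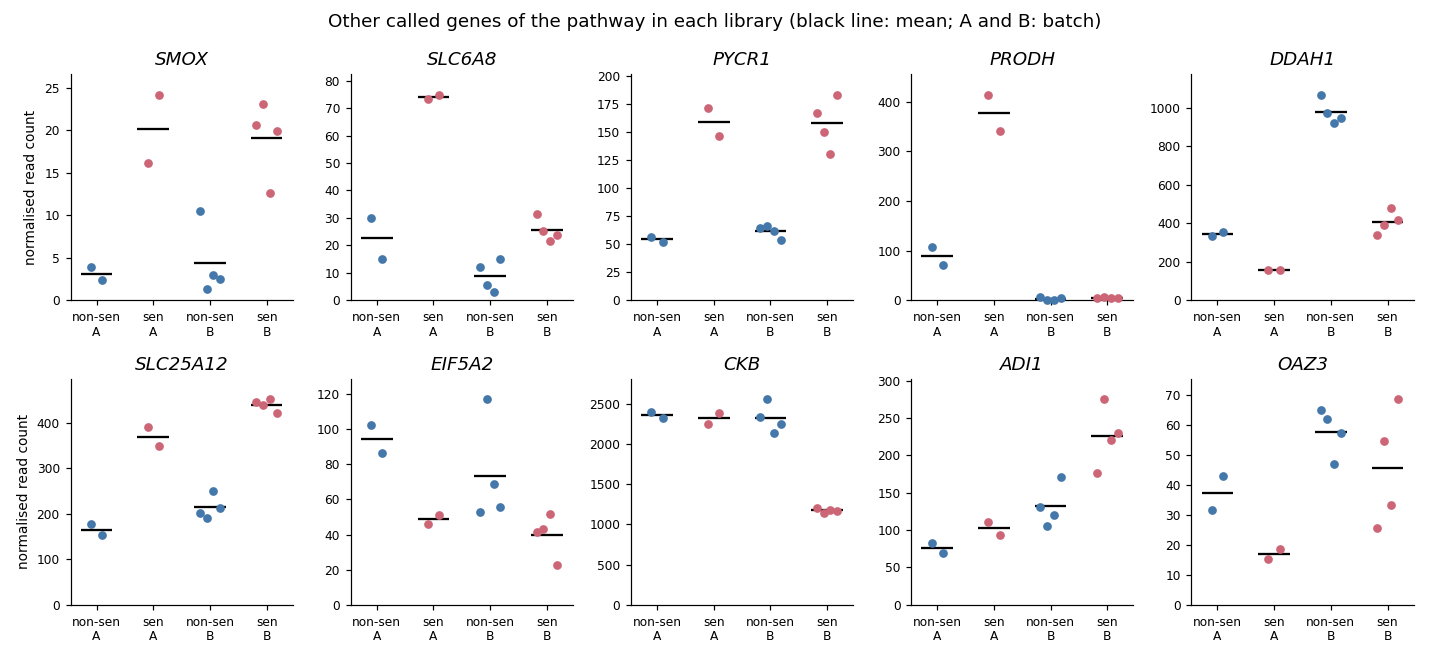
Normalised read count of the 10 called genes around the pathway in each library, by group and batch, with a black line at the mean and axes that start at 0. CKB is lower in the senescent libraries of batch B only, and PRODH is near 0 in all libraries of batch B.

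The response differed between batches for 3 of the 43 genes (4.21% of all tested genes), CKB and, chosen after their values were seen, OAZ1 and EIF5A. OAZ1, an antizyme, had a log2 fold change of 0.01 in batch A versus -0.37 in batch B (limma adjusted p of the difference = 0.0894). EIF5A, which has near-identical copies, had 0.30 in batch A versus -0.93 in batch B (limma adjusted p of the difference = 0.0496). Without any 1 of the 4 batch A libraries neither passed, and OAZ1 passed in 8 of 21 alternatives.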

How the data were processed

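RNA of 12 libraries (6 senescent, 6 non-senescent) was measured by CEL-seq2. Per the labels and methods, the authors used Cutadapt for trimming, Salmon 0.13.1 with GRCh38 for quantification and DESeq2 for normalisation. The deposited values are a signal, reads divided by the size factor of each library, and 100.0% of 196021 non-zero values gave whole reads within 0.001. Strand use, molecular identifiers and the transcript annotation are not given in the sources used here, so floors of 3 reads cover counting error only. The deposited fold changes, test statistics, p-values and adjusted p-values of the authors were not used.

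Groups and batches came from the labels. limma 3.58.1 in R 4.3.3 was fitted, with intensity trend, to log2(signal + 1) of 13847 of 22707 genes with reads, with batch and group as terms, Benjamini-Hochberg adjustment over all tested genes, and a batch by group term for the interaction. Genes named by a set rule were the 10 genes, every called gene of the 53 around the pathway, and the 5 genes most like ASS1 by each measure. Genes around the pathway that were not called were named beside these for their role, without such a rule. The genes, lists and tests were chosen with earlier results of these data known. Pairs of libraries of 1 group and batch differed beyond counting noise (chi-square per degree of freedom of 4.14 to 7.61). Alternatives varied the pseudocount, filter, scaling, batch term, replicate block, threshold, tool (edgeR 4.0.16 and DESeq2 1.42.0 on the recovered reads) and single libraries left out. edgeR called 1561 genes higher and 1677 lower, of which limma called 1495 and 1576. Scripts were tested on simulated data. Positions came from GENCODE and promoter windows from RefSeq (GRCh38.p14).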

Additional observations from a re-analysis of the deposited data

Results flagged for a closer look

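Among 76 groups of libraries looked at, 4 held a library far from the others, where chance gives about 1 in 20. The SAT1 value of non-senescent B3 (256 normalised read counts) was the lowest of its 6 libraries. For SMOX, non-senescent B1 (10.5) was the highest of the 6 non-senescent libraries and of the 4 in batch B. EIF5A2 in senescent B4 (22.4) was the lowest of 6.

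The response (log2 fold change, batch B minus batch A) differed between batches for CKB by -0.95 (limma adjusted p = 2.84e-04). For ASS1 this difference was 1.95, for ARG2 -1.20 and for SAT1 0.72, given without a test since these genes were chosen with the contrast known.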

How the results depend on the processing

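The direction of ASS1 and SAT1 held in every alternative, with log2 fold changes of 1.38 to 3.33 and 0.90 to 1.62. Without a batch term 1037 genes were called higher. With limits of 0.05 for the adjusted p and 2 for the fold change, 637 genes were called higher and 779 lower, and 1 of the 43 genes around the pathway was lower. In batch A alone 1667 genes were called higher, 4 of the 9 genes among them. With DESeq2 the interaction passed for 1067 genes, 5 of them around the pathway. With 1 library left out, it passed for 169 to 743 genes and for 1 to 3 around the pathway. It fell to 261 and 175 without non-senescent A1 and A2, and to 183 and 169 without senescent A1 and A2. Some of these settings had fewer samples or stricter limits, and the cause of the changes was not tested. Scaling to the same total moved the median log2 fold change of all genes from 0.01 to -0.09, gave 1225 genes called higher and 2092 lower, and ADI1 was then not called.

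Libraries with the same replicate number did not deviate together (correlations of -0.0508 to 0.0164). With a replicate block 1591 genes were called higher and 1620 lower, with 2 and 0 of the 9 genes, and 6 and 4 around the pathway. GATM had at most 14 reads in a library, so its values carry a large counting error.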
